A study of Mus musculus with 2 samples.

Results

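The genes of the IL-6 and GM-CSF receptor systems, Il6ra, Il6st, Csf2ra, Csf2rb, Csf2rb2, Stat3, Stat5a, Stat5b, Socs3 and Cish, were followed through single-cell RNA sequencing of mouse myeloid-derived suppressor cells (MDSC), immature myeloid cells known for restraining T cells. They were taken by symbol, and all 10 were found among the 32285 genes listed. One culture received the solvent DMSO and the other 50 nM selinexor, a drug that blocks the nuclear export receptor exportin 1. Both were grown with the same recombinant IL-6 and GM-CSF, each at 40 ng/mL, and live CD11b+ cells were sorted on day 4 and pooled before droplet capture. Both are marked WT in the deposit, and no source used here states the strain, age or starting tissue. Each group is 1 library, so no spread between cultures is known, and no test or p-value is given. Intervals are 95% intervals for counting error only.

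IL-6 binds its receptor alpha chain, encoded by Il6ra, and the pair recruits gp130, encoded by Il6st, the signalling chain shared by the IL-6 cytokine family. JAK kinases bound to gp130 then phosphorylate STAT3, whose target Socs3 encodes an inhibitor that binds gp130 and JAKs and shuts the signal off. GM-CSF binds an alpha chain, encoded by Csf2ra, which joins the common beta chain, encoded by Csf2rb. This complex acts largely through JAK2 and the close relatives STAT5A and STAT5B, whose target Cish encodes another SH2-domain feedback protein. Csf2rb2 encodes a second mouse beta chain, which serves IL-3 and not GM-CSF. IL-6 with GM-CSF is a standard mixture for growing suppressive neutrophil-like and monocyte-like cells from marrow progenitors.

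The feedback genes carry the letters that STAT dimers are known to bind in front of or at their RefSeq starts. Promoters, 250 bases before to 50 bases after the start, were found in RefSeq (GRCm38.p6, the same primary assembly as mm10) for 9 of the 10 genes and searched for TTCNNNGAA, which reads the same on both strands. It was present in 3 of the 9 and in 8.30% of all 32851 promoters of that length. At least 2 matches, as in Cish, were present in 0.457%. The stretches around the matches are shown because Socs3 and Cish are the feedback outputs read below, and Csf2rb2 was the other match. They are written 5′ to 3′ on the gene's strand, with the motif in capitals.
Socs3, chr11:117969501-117969530, minus strand: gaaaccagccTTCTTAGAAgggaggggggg
Cish, chr9:107296654-107296683, plus strand: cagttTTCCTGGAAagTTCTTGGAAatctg
Csf2rb2, chr15:78305717-78305746, minus strand: gtgtccacaaTTCTGAGAAgcaagcaaagc
The Socs3 match began 154 bases before the RefSeq start and the Csf2rb2 match 15 bases before its own. The 2 Cish matches began at bases 1 and 12 of the transcribed side. The gene spans given below come from GENCODE, where Socs3 begins at 117970047 on the minus strand and Cish at 107296026. By those starts the Socs3 and Cish matches lie inside the genes. A match is a description of letters, and binding was not measured.

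After filtering, 1742 DMSO and 1962 selinexor cells remained, with 14209188 and 12771314 UMIs (unique molecular identifiers, counted molecules) in genes. The median cell held 7786.5 UMIs in DMSO and 3912 in selinexor. No barcode was shared between the libraries. Itgam, the gene of the CD11b used for sorting, was at 306 and 411 CPM (a gene's UMIs scaled to a gene total of 1e6). Xpo1, which encodes the drug's target, was at 66.2 CPM in DMSO and 200 CPM in selinexor. Summed levels of the 7 T cell markers were 1.20 and 1.33 CPM.

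Cells of both libraries were clustered together with the 10 genes and their pathway lists left out, and clusters were named by fixed markers. Late neutrophil-like cells numbered 467 in DMSO and 770 in selinexor, and intermediate neutrophil-like cells 238 and 204. Monocyte-like cells, led by Fn1 but also by the macrophage marker Mrc1, numbered 99 and 329. Macrophage-like cells numbered 116 and 50, and their 10 leading genes held 3 C1q genes beside Ccl17, Ciita and the MHC class II genes H2-Ab1, H2-Eb1 and H2-Aa. At Leiden resolution 1.5 the cells led by Ccl17 and H2-Ab1 (91 and 49) took the dendritic cell name instead. The macrophage-like and monocyte-like classes did not hold like cells in the 2 libraries. The summed C1q level in macrophage-like cells was 894 CPM in DMSO and 154 in selinexor, and Fn1 in monocyte-like cells was at 374 and 1525 CPM. At that resolution the monocyte cluster held 6 DMSO and 207 selinexor cells and the C1q macrophage cluster 109 and 6. Ratios within these classes therefore cannot be told apart from a difference in the cells they hold. Clusters 4 (Retnlg, Olfm4, Ltf), 5 (Gpnmb, Apoc2) and 6 (mitotic genes) stayed unnamed and had at least 50 cells in each library. Early neutrophil-like cells (79 and 31), cluster 3 (Csta3, Dmkn; 348 and 11) and dendritic cell-like cells (5 and 34) were too few in a library for a ratio, so only their levels are given. Most late neutrophil-like cells of DMSO (417) lay in cluster 1 and most of selinexor (705) in cluster 0, so this class was held by different clusters in the 2 libraries. Both clusters had few UMIs per cell, with a class median of 1633 in DMSO and 1087.5 in selinexor.

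Over all cells, the transcripts of the receptor system did not share a direction. Stat3 and Stat5a were at least 1.5-fold higher in selinexor, and no member was 1.5-fold lower. Of 10387 measured genes (at least 50 UMIs over both libraries), 9.82% were that much higher and 3.86% that much lower, so 2 of 10 members is little above the background. Counting intervals lay above 0 for Il6ra, Csf2rb, Stat3, Stat5a and Stat5b and below 0 for Csf2ra and Socs3, and included 0 for Il6st, Csf2rb2 and Cish. Of all measured genes, 36.4% had an interval above 0 and 17.1% one below 0, so 5 and 2 of 10 members are close to the background. The median log2 ratio of the members was 0.25 and that of all measured genes 0.13. A ratio over all cells holds both a change in the mix of cells and a change in level per cell, and these cannot be told apart without the classes.

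Within classes, between 0 and 3 members passed 1.5-fold in a direction, set here beside the share of genes with at least 20 UMIs in the class that did so. Late neutrophil-like cells had 2 of 10 higher (Stat3, Stat5b) against 25.7% of genes and 2 lower (Il6st, Socs3) against 11.1%. Monocyte-like cells had 2 higher (Stat3, Stat5a) against 10.3% and 2 lower (Csf2rb2, Socs3) against 9.61%. Intermediate neutrophil-like cells had 0 higher against 7.49% and 1 lower (Il6st) against 8.58%. Macrophage-like cells had 1 higher (Stat5b) against 10.2% and 0 lower against 14.7%. Cluster 4 had 0 of 9 higher against 23.6% and 3 lower (Il6st, Stat5b, Socs3) against 12.9%. Cluster 5 had 3 higher (Il6st, Csf2rb, Stat5a) against 21.6% and 0 lower against 17.8%, of which Il6st and Stat5a rested on 2 and 0 DMSO UMIs. Cluster 6 had 2 higher (Il6ra, Csf2rb) against 16.7% and 0 lower against 6.33%. Some of these calls had counting intervals that included 0. They were Stat5a in monocyte-like cells, Stat5b in macrophage-like cells, Stat5b and Socs3 in cluster 4, and Il6st and Stat5a in cluster 5.

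**Figure D1:**
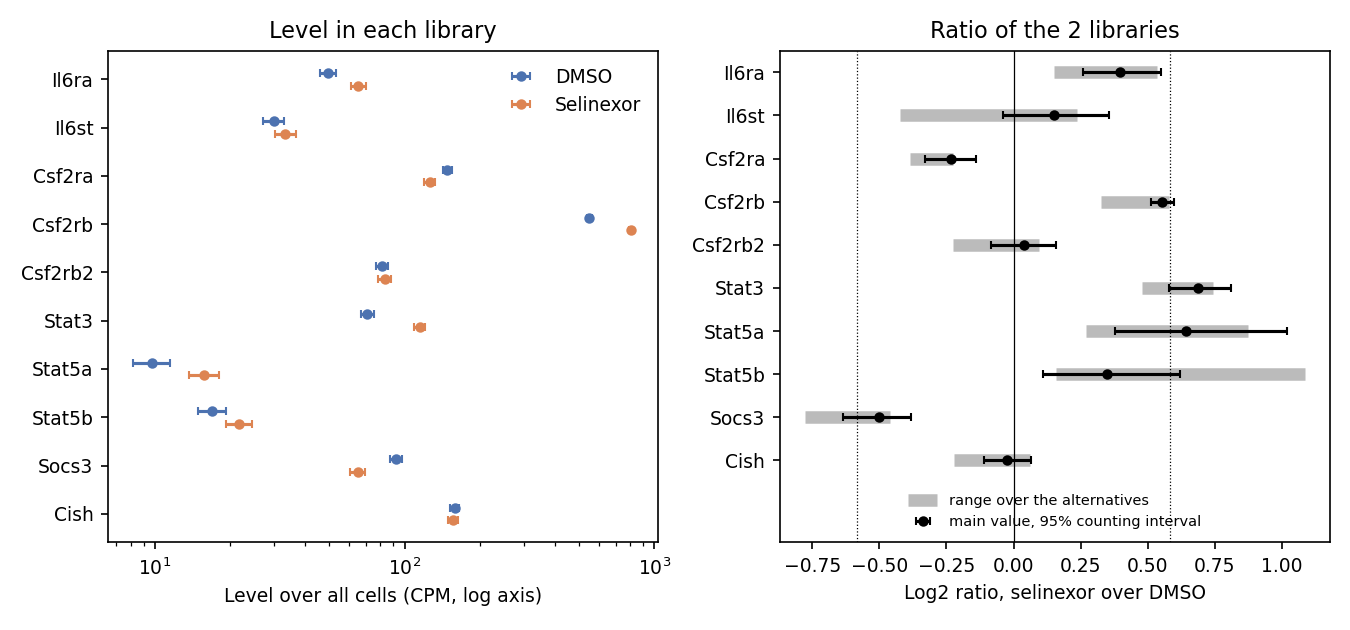
Left, CPM over all cells of each gene in the DMSO and selinexor libraries on a log axis, with exact Poisson intervals. Right, log2 ratio of selinexor over DMSO with its counting interval (black) and its range over 11 alternative settings (grey); dotted lines mark 1.5-fold. Stat3 is the highest point at 0.69 and Socs3 the lowest at -0.50.

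Il6ra, the ligand-binding chain for IL-6 (chromosome 3, 89864059 to 89913196, mm10), gave 701 UMIs in DMSO and 834 in selinexor, or 49.3 and 65.3 CPM. Its log2 ratio was 0.40 (interval 0.26 to 0.55). After each cell was thinned to 2000 UMIs, which kept 1428 DMSO and 1179 selinexor cells, 7.91% and 11.2% of cells held an Il6ra UMI. Without thinning the shares were 29.2% and 27.3%. Thinning kept 204 of 467 DMSO and 66 of 770 selinexor late neutrophil-like cells, so thinned shares of all genes compare different mixes of cells. The level was higher at each later neutrophil-like stage: in DMSO it was at 8.69 CPM in early, 20.6 in intermediate and 92.1 in late neutrophil-like cells. In selinexor the same series ran 10.7, 22.7 and 96.2 CPM. The intervals of early and intermediate cells overlapped in both libraries. Monocyte-like cells, at 90.3 CPM in DMSO and 92.4 in selinexor, held nearly the same level as late neutrophil-like cells, with overlapping intervals. Within late neutrophil-like and monocyte-like cells the log2 ratios were 0.06 and 0.03, both with intervals including 0, and the first was -0.12 under TMM scaling and 0.73 after thinning. With both libraries weighted to the same mix of clusters, the ratio over all cells was 0.15. That mix took in the 10 of 13 clusters with at least 20 cells in each library, without cluster 3 or dendritic cell-like cells. The interval within a class lay clear of 0 in cluster 6 alone, at 0.61 (0.23 to 1.01).

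Il6st, which encodes gp130 (chromosome 13, 112464070 to 112510086), gave nearly equal totals, 424 UMIs in DMSO and 425 in selinexor, or 29.8 and 33.3 CPM. The log2 ratio was 0.15 (-0.04 to 0.35). Those equal totals came from different cells. Monocyte-like cells held 14.4% of the DMSO Il6st UMIs and 56.2% of the selinexor ones, while holding 7.80% and 31.3% of all gene UMIs. Their Il6st level was 55.1 CPM in DMSO and 59.9 in selinexor, and that of macrophage-like cells 47.5 and 52.0 CPM, with overlapping intervals. The 34 selinexor dendritic cell-like cells stood at 107 CPM (76.9 to 145), above the interval of every other selinexor class with at least 30 cells.

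In neutrophil-like cells Il6st was lower in the selinexor library. Late neutrophil-like cells gave 23 Il6st UMIs from 22 of 467 cells in DMSO and 1 UMI from 770 cells in selinexor, or 18.9 and 1.05 CPM. The log2 ratio was -3.28 (-9.54 to -1.55). Intermediate neutrophil-like cells gave 25 and 6 UMIs, 11.7 and 3.10 CPM, a log2 ratio of -1.63 (-3.49 to -0.60). Cluster 4, whose leading genes include the granule transcripts Ltf and Mmp9, gave 33 and 6 UMIs, 38.9 and 8.09 CPM, a log2 ratio of -2.13 (-3.81 to -0.99). Early neutrophil-like cells were near 0 in both libraries, with 2 UMIs in DMSO and 0 in selinexor.

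Pooling all neutrophil-like classes, a step added after these values were seen, gave 50 UMIs from 784 DMSO cells and 7 from 1005 selinexor cells. That is 11.1 against 2.08 CPM, 5.33-fold lower in selinexor, with a log2 ratio of -1.97 (-3.80 to -1.27). In the pool 6.51% of 9537 measured genes were at least 1.5-fold lower and 9.51% that much higher. The alternatives that gave a value ranged from -2.49 to -1.40. Thinning left few events: 7 of 204 DMSO and 1 of 66 selinexor late neutrophil-like cells held an Il6st UMI, and the intervals of these shares, 1.39% to 6.94% and 0.0384% to 8.16%, overlapped. Taken singly, cluster 1 gave 20 DMSO UMIs and 0 from its 65 selinexor cells, with an interval that included 0 (upper bound 1.37). Cluster 0 gave 3 and 1, with an interval of -10.8 to -1.42.

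Transcripts of other cells in the neutrophil-like classes were measured beside it. In DMSO late neutrophil-like cells the C1q genes stood at 0.552% of their macrophage-like level, Mrc1 at 3.69% and Fn1 at 8.80% of their monocyte-like levels, and Il6st at 34.3% of its monocyte-like level. In selinexor the same shares were 7.45%, 1.80%, 2.88% and 1.75%. The Il6st share in DMSO late neutrophil-like cells rests on 23 UMIs. Il6st was not confined to monocyte-like cells in DMSO, standing at 38.9 CPM in cluster 4 and 35.0 CPM in cluster 3. A larger share for Il6st than for the other transcripts therefore does not tell where its UMIs came from, and their source was not tested.

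**Figure D2:**
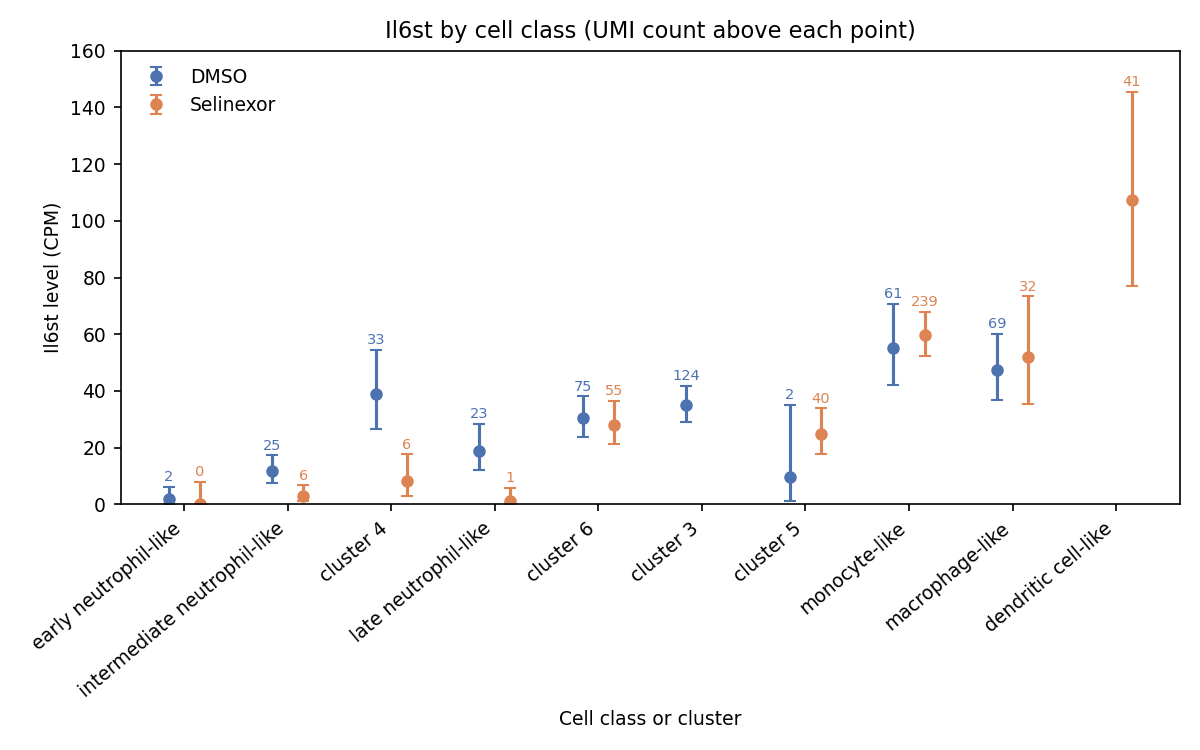
Il6st level in CPM (vertical axis, from 0) in each cell class or cluster with at least 30 cells in the library, with exact Poisson intervals and the UMI count above each point. Selinexor points lie below DMSO points in intermediate and late neutrophil-like cells and cluster 4, and the 2 libraries overlap in monocyte-like and macrophage-like cells.

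Csf2ra, the alpha chain that gives GM-CSF its specificity (chromosome 19, 61223957 to 61228429), gave 2107 UMIs in DMSO and 1609 in selinexor, or 148 and 126 CPM. Its log2 ratio was -0.23 (-0.33 to -0.14). Thinned cells with a UMI made up 26.8% and 21.6%. Within classes the ratio was below 0 in 7 of 7, from -0.49 in cluster 5 and macrophage-like cells to -0.04 in cluster 6, apart from 0.04 in thinned late neutrophil-like cells, and reached 1.5-fold in none. The interval excluded 0 in monocyte-like (-0.44), macrophage-like (-0.49) and intermediate neutrophil-like cells (-0.35) and, narrowly, in cluster 4 (-0.36). Csf2ra was the flattest member over the DMSO classes. It went there from 116 CPM in intermediate to 216 CPM in late neutrophil-like cells, a 1.86-fold range over the 9 classes with at least 50 cells. Early neutrophil-like cells were already at 121 CPM.

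Csf2rb, the common beta chain (chromosome 15, 78325752 to 78353847), gave 7799 UMIs in DMSO and 10295 in selinexor, or 549 and 806 CPM. Its log2 ratio was 0.55 (0.51 to 0.60). A UMI was found in 56.7% of thinned DMSO and 68.5% of thinned selinexor cells, the largest shares of the 10 genes. No class of these cultures is known to lack the receptor, so no background share could be set. Its level was graded: in DMSO 122 CPM in early, 198 in intermediate and 609 in late neutrophil-like cells, then 1078 in monocyte-like and 1402 in macrophage-like cells. The selinexor order was the same, at 158, 241, 732, 1135 and 1643 CPM, and neighbours in either series had intervals that did not overlap, apart from monocyte-like and dendritic cell-like cells in selinexor (1135 and 1229 CPM).

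Within classes the Csf2rb ratio was above 0 in 7 of 7, though under median-of-ratios scaling it was -0.03 in cluster 4 and at a finer clustering -0.53 in macrophage-like cells. It was largest in the mitotic cluster 6, at 0.93 (0.82 to 1.04), from 468 to 892 CPM. Cluster 5 followed at 0.65 (0.31 to 1.00). The ratio was small in monocyte-like cells, 0.07 (-0.02 to 0.17), and with monocyte- and macrophage-like cells pooled it was -0.07 (-0.13 to -0.01). With the same mix of clusters in both libraries the ratio over all cells was 0.32. The beta chain and the alpha chain of the GM-CSF receptor therefore had log2 ratios of opposite sign in each of the 7 classes, but not in that pool or under those alternatives.

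Csf2rb2, the IL-3 beta chain beside it (chromosome 15, 78282507 to 78305721), gave 1153 and 1064 UMIs, or 81.1 and 83.3 CPM. Its log2 ratio was 0.04 (-0.08 to 0.16). In monocyte-like cells it was lower in selinexor, 101 against 158 CPM, a log2 ratio of -0.64 (-0.90 to -0.38), although after thinning it was -0.16. In cluster 6 it was higher, 81.4 against 62.0 CPM, a log2 ratio of 0.39 (0.06 to 0.72). Macrophage-like cells, at 229 and 232 CPM, held the highest level in both libraries among classes of at least 50 cells. The 2 beta chain genes share 18.4% of the 50-base windows of the Csf2rb transcript and none in its last 500 bases, so reads from the shared windows could be assigned to either gene or lost.

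Stat3, the main transducer of gp130 (chromosome 11, 100885098 to 100939540), gave 1008 UMIs in DMSO and 1467 in selinexor, or 70.9 and 115 CPM. The log2 ratio was 0.69 (0.58 to 0.81), and over the alternatives it ran from 0.48 to 0.74. Thinned cells with a Stat3 UMI made up 13.1% and 20.9%. Its largest class ratio was in late neutrophil-like cells, 83 against 131 UMIs and 68.3 against 137 CPM, a log2 ratio of 0.99 (0.60 to 1.42). Taken singly, clusters 0 and 1 gave 1.04 (-0.22 to 2.70) and 1.38 (0.52 to 2.18). In monocyte-like cells the ratio was 0.71 (0.41 to 1.04), from 87.6 to 144 CPM. In intermediate neutrophil-like and macrophage-like cells it was 0.06 in both, with intervals including 0, but 0.71 in the first at Leiden resolution 0.5 and up to 0.82 in the second over the other clusterings. The ratios of clusters 5 and 6, 0.23 and 0.35, were -0.45 and -0.30 after thinning. Dendritic cell-like cells in selinexor stood at 293 CPM (241 to 352), above the interval of every other selinexor class with at least 30 cells.

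Stat5a (chromosome 11, 100859351 to 100885169) gave few UMIs, 138 in DMSO and 201 in selinexor, or 9.71 and 15.7 CPM. The log2 ratio was 0.64 (0.38 to 1.02), and it was 0.27 with the same mix of clusters and when every cell had equal weight. The same mix left out the dendritic cell-like cells. Dendritic cell-like cells in selinexor held 61 of its 201 UMIs, from 34 cells, at 160 CPM (122 to 205). The next class in that library, macrophage-like, was at 26.0 CPM. No class had a Stat5a interval clear of 0. Stat3 and Stat5a lie end to end on opposite strands and overlap by 72 bases. No source used here states the strand setting of the counting, so reads from that overlap cannot be assigned with certainty.

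Stat5b, the relative of Stat5a beside it (chromosome 11, 100780731 to 100850724), gave 240 and 278 UMIs, or 16.9 and 21.8 CPM. The log2 ratio was 0.35 (0.11 to 0.62), and thinned shares of cells were 2.66% and 5.68%. After thinning the summed level gave a log2 ratio of 1.09. In late neutrophil-like cells it was 0.85 (0.06 to 1.74), on 22 and 32 UMIs, and in cluster 4 it was -0.74 (-1.65 to 0.07), on 37 and 19 UMIs. Stat5a and Stat5b share 15.8% of the 50-base windows of the Stat5a transcript, again none in the last 500 bases.

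**Figure D3:**
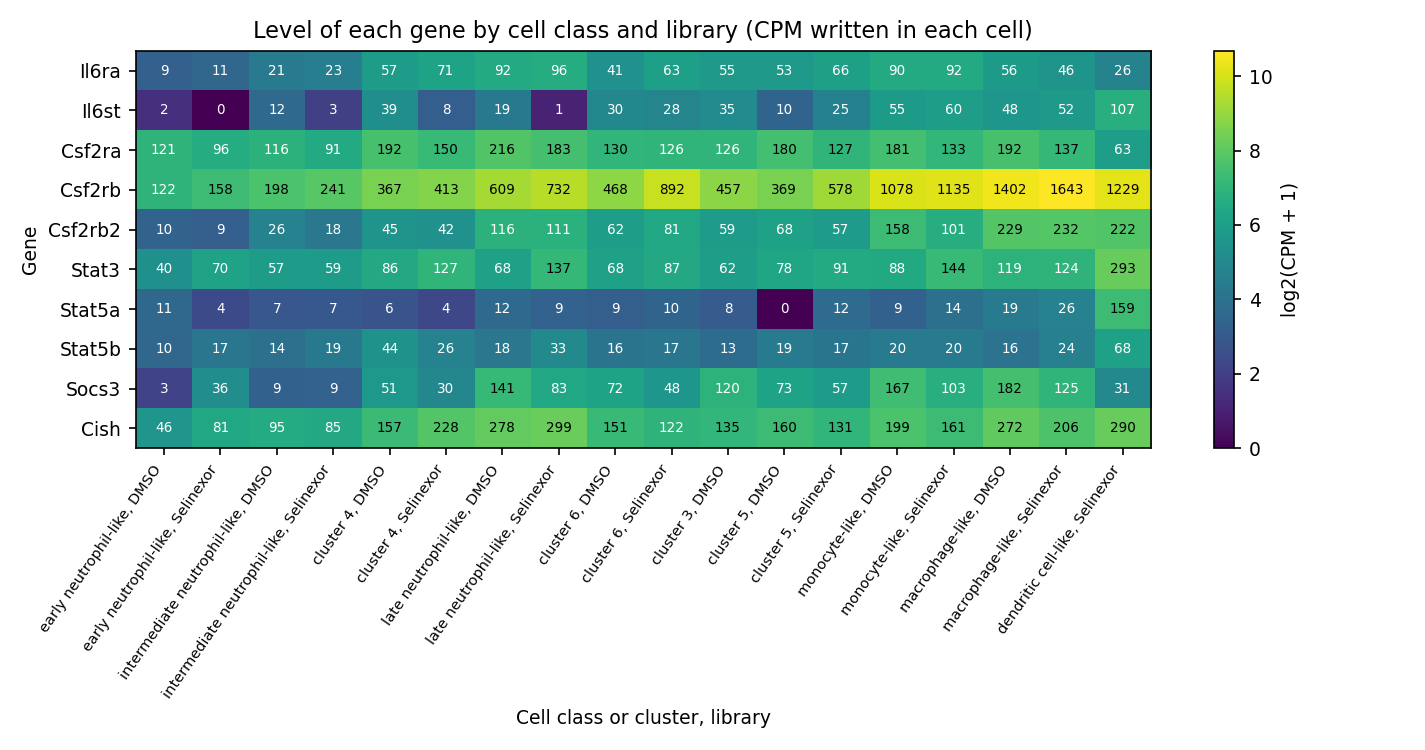
CPM of each of the 10 genes (rows) in each cell class or cluster with at least 30 cells in the library (columns, DMSO beside selinexor), coloured by log2(CPM + 1). Csf2rb, Csf2rb2, Socs3 and Cish go from low in early and intermediate neutrophil-like cells to high in late neutrophil-like and macrophage-like cells, and in DMSO Csf2ra varies least.

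Socs3, the feedback inhibitor of gp130 (chromosome 11, 117966079 to 117970047), gave 1311 UMIs in DMSO and 829 in selinexor, or 92.3 and 64.9 CPM. The log2 ratio was -0.50 (-0.63 to -0.38), and over the alternatives it ran from -0.78 to -0.46. A UMI was held by 14.9% of thinned DMSO and 9.84% of thinned selinexor cells. Of the 10 genes it had the lowest ratio, in the direction opposite to Stat3.

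By class, Socs3 was low in early and intermediate neutrophil-like cells of DMSO and high in late neutrophil-like, monocyte-like and macrophage-like ones. In DMSO it stood at 3.47 CPM in early, 8.89 in intermediate and 141 in late neutrophil-like cells, 167 in monocyte-like and 182 in macrophage-like cells. The selinexor levels of the last 3 were 82.6, 103 and 125 CPM. The ratio was below 0 in 6 of 7 classes, and in the other, intermediate neutrophil-like cells, 0.06 turned negative in 4 alternatives. It was -0.09 with equal cell weights, -0.81 and -0.05 at Leiden resolutions 0.5 and 1.5, and -0.11 with the members kept in the clustering. The ratio was -0.77 (-1.18 to -0.38) in late neutrophil-like, -0.69 (-0.95 to -0.44) in monocyte-like, -0.57 (-0.96 to -0.22) in cluster 6 and -0.54 (-0.93 to -0.17) in macrophage-like cells. Thinning brought the monocyte-like value to -0.34 and the macrophage-like value to -0.10. At Leiden resolution 1.5 the macrophage-like value was -1.96, on other cells of that name. Within clusters 0 and 1 singly it was -0.57 and -0.09, both with intervals including 0. Early neutrophil-like cells gave 4 UMIs from 4 of 79 DMSO cells and 17 UMIs from 5 of 31 selinexor cells, so the selinexor level there, 36.2 CPM, rested on 5 cells.

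Cish, the STAT5 feedback gene (chromosome 9, 107296026 to 107302784), gave 2255 and 1995 UMIs, or 159 and 156 CPM. Its log2 ratio was -0.02 (-0.11 to 0.06), and thinned shares of cells were 27.5% and 26.2%. The near-equal totals again hid differences by class. In macrophage-like cells it was lower in selinexor, 206 against 272 CPM, a log2 ratio of -0.40 (-0.70 to -0.11). In monocyte-like cells the ratio was -0.31 (-0.53 to -0.08) and in cluster 6 -0.30 (-0.55 to -0.07). In cluster 4 it was 0.54 (0.21 to 0.88), from 157 to 228 CPM. After thinning, which is 1 random draw, the monocyte-like ratio was 0.59, with a Cish UMI in 22 of 99 DMSO and 107 of 327 selinexor cells. The other 4 alternatives of that ratio stayed inside its main interval. Whether depth or the draw changed the sign was not tested. Late neutrophil-like cells, at 278 and 299 CPM, had a ratio of 0.11 with an interval including 0, and -0.08 under TMM scaling. Without thinning, none of these reached 1.5-fold. Gm17041, an antisense gene that is also counted, overlaps Cish by 1459 bases, and Gm42809 overlaps Il6ra by 281 bases on the other strand.

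**Figure D4:**
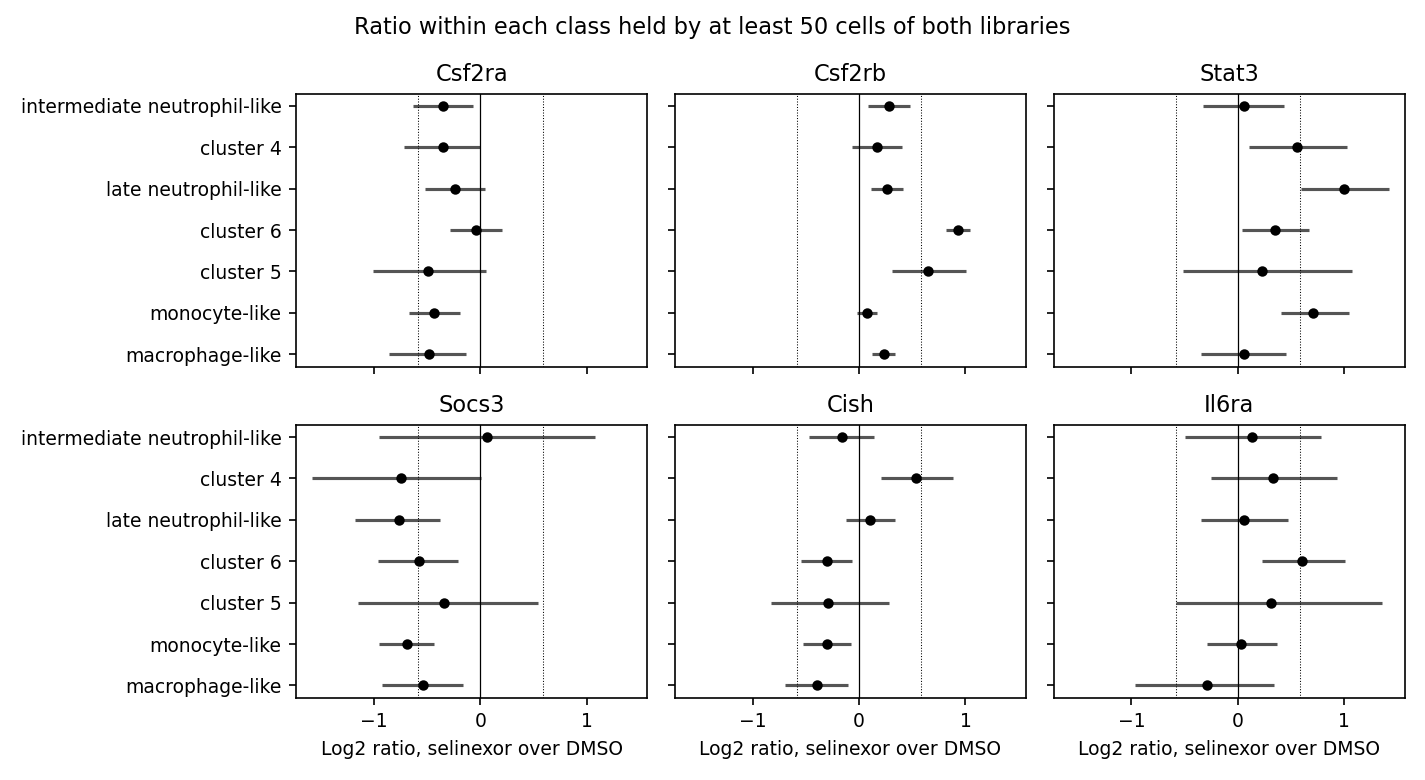
Log2 ratio of selinexor over DMSO (horizontal axis) with its counting interval in each of the 7 classes or clusters with at least 50 cells of both libraries, for 6 genes; dotted lines mark 1.5-fold. All 7 points lie below 0 for Csf2ra and above 0 for Csf2rb and Stat3, and 6 of 7 lie below 0 for Socs3. Some signs change under alternatives not drawn here, such as Il6ra in cluster 5 (-0.88 after thinning) and Cish in intermediate neutrophil-like cells (0.43 at Leiden resolution 0.5).

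Among thinned cells, Il6ra and Il6st were both detected in 4 of 1428 DMSO and 13 of 1179 selinexor cells, and Csf2ra and Csf2rb in 219 and 175. Il6st was found in 3.54% of DMSO cells with Il6ra and 5.25% of those without, and in 9.85% and 5.06% in selinexor. Csf2rb was found in 57.2% of DMSO cells with Csf2ra and 56.5% of those without, and in 68.6% and 68.5% in selinexor. Cells with Il6st held Csf2rb more often than the rest did, in 74.0% against 55.7% in DMSO and 92.4% against 67.1% in selinexor. Both genes were high in monocyte-like and macrophage-like cells. The shares of all pairs were taken over all classes together, so a pairing within a class cannot be read from them. Socs3 and Cish were both detected in 66 DMSO and 39 selinexor cells. At 2000 UMIs a cell most low transcripts are missed, so these shares describe detection and not presence.

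The genes whose levels most resembled each of 4 members were ranked over the 16 class-by-library sums with at least 50 cells, by Pearson r of log2(CPM + 1) among 5282 genes. The points share libraries and cell states, so r is a description. For Socs3 they were Mvp and Ctnnbip1 (0.98 each) and March1 (0.96). For Cish they were Cmtm6, Trib1 and Zfp36l1 (0.96 each). For Il6ra they were Cdc42ep2, Pon2 and Gsap (0.97 each). For Csf2rb they were Cd200r1 and Nckap1l (0.97 each) and Pik3r5 (0.96), which encodes a PI3K-gamma regulatory subunit and is also in the adaptor list below. Among the members themselves, Csf2rb followed Csf2rb2 (0.95) far more closely than its partner Csf2ra (0.40).

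Transcripts of the cytokines added to the cultures were few or not detected. Il6 gave 11 UMIs in DMSO and 6 in selinexor, and Csf2, which encodes GM-CSF, and Il3 gave 0 in both. In the IL-6 family list 7 of 14 genes were measured, with 1 at least 1.5-fold higher and 1 lower and a median log2 ratio of 0.02. Of all measured genes 9.82% were that much higher and 3.86% that much lower, with a median of 0.13. The counts of each list are to be read beside these shares. The higher gene was Clcf1, a ligand of the family (18 and 34 UMIs, 0.69), and the lower one was Lifr, a receptor chain that pairs with gp130 (39 and 18 UMIs, -0.64). The sheddases Adam10 and Adam17, which can cleave the IL-6 receptor from the cell surface, had ratios of 0.56 and 0.55. Of 4 measured genes of the beta common and colony-stimulating factor list, Csf1 was higher (0.64), and Csf3r, Il3ra and Csf1r were at 0.26, -0.02 and -0.02.

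All 4 JAK kinases were measured and none reached 1.5-fold. Jak1, which serves gp130, was at 119 and 156 CPM (0.39; 0.30 to 0.49), and Jak2, which serves the common beta chain, at 96.1 and 81.4 CPM (-0.24; -0.36 to -0.12). Tyk2 had a ratio of 0.21 and Jak3 of -0.08. Among the other STATs, Stat4 was at 2.46 and 8.22 CPM, on 35 and 105 UMIs, with a ratio of 1.41 (1.17 to 2.33). Stat6 and Stat2 had 0.49 and 0.09.

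Of 18 negative regulators 3 were at least 1.5-fold higher, none was lower and the median was 0.32. The shares of all measured genes were 9.82% higher and 3.86% lower, with a median of 0.13. Socs2, a STAT5 target, had 0.81 (26.6 and 47.5 CPM), Socs6 0.70 and the ubiquitin ligase gene Cblb 0.59, while Socs1 had -0.49 (37.8 and 26.6 CPM). Socs1 and Socs3 thus lay on the low side and Socs2 and Socs6 on the high side. Of 15 adaptors and kinases of the RAS and PI3K branches, Pik3r1 (0.76) and Gab1 (0.65) were higher, none was lower, and Gab2 and Pik3r5 had 0.53 and 0.48.

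Textbook targets did not move as a block. Of 14 STAT3 targets 1 was higher and 2 lower, with a median of 0.01. Among all measured genes 9.82% were higher and 3.86% lower, with a median of 0.13. Pim1, a kinase gene induced by both STATs, was the higher one, at 339 and 611 CPM (0.85; 0.80 to 0.90). S100a8 and S100a9, the abundant calcium-binding genes of neutrophils, were the lower ones, at -0.68 and -0.61. S100a8 was at 58452 CPM in DMSO and 36609 in selinexor, and S100a9 at 57218 and 37491. Both are also in the late neutrophil marker list, whose summed level was 117589 CPM in DMSO and 75951 CPM in selinexor. They make up nearly all of that sum, so it is not a separate measure of late neutrophil transcripts. Bcl6 had 0.48. Of 10 measured STAT5 targets 4 were higher and 1 lower, with a median of 0.03, set beside those same shares of all genes. Il1rn, which encodes the IL-1 receptor antagonist, had 0.85, Socs2 0.81, and Il2ra, the IL-2 receptor alpha chain, -1.23, on 105 and 33 UMIs.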

How the data were processed

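The deposited values are raw UMI counts, for which the submitters' processing notes name Cell Ranger 6.1.2 and mm10. No source used here states the annotation release or how barcodes were called cells. Cells needed 200 genes and a mitochondrial share under 10%, which kept 1742 of 1784 DMSO and 1962 of 1989 selinexor barcodes. Scrublet (scanpy 1.11.5) called 1 and 5 doublets, so doublets were in effect not removed. Counts were summed per library or class and scaled to CPM of the gene total. Log2 ratios compare log2(CPM + 1). Sums have exact Poisson intervals, ratios exact conditional binomial intervals whose bounds carry no pseudocount, and shares of cells Clopper-Pearson intervals. Genes need 50 UMIs over both libraries, or 20 within a class, to count as measured. Thinning to 2000 UMIs left out 314 DMSO and 783 selinexor cells. Clustering used 2000 variable genes without the members and pathway lists, 30 principal components, 15 neighbours and Leiden resolution 1. A cluster took the name with the highest mean marker ratio if at least 3 of its markers were 2-fold up on at least 10 UMIs and no other name had more markers among its top 10 genes. This rule was chosen after the clusters were seen. Sequences came from RefSeq and coordinates from GENCODE vM21.

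All members are described. Of each pathway list up to 4 measured genes with the largest ratio were named, and for 4 members the 3 genes most like them; some listed genes are not reported here. Members, lists and tests were chosen with earlier results of these data known. Scaling was repeated with edgeR 4.0.16 (TMM) and DESeq2 1.42.0 (median of ratios), used for factors only. Other alternatives changed cell weights, depth, filters, the cell mix and the clustering. The pooled neutrophil-like cells, clusters 0 and 1 taken singly, and median-of-ratios scaling within classes were added after seeing the data. The ratio code was tested on simulated counts.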

Additional observations from a re-analysis of the deposited data

How the results depend on the processing

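The number of members at least 1.5-fold higher, 2 in the main analysis, was 0 under TMM scaling, median-of-ratios scaling, the same cell mix and a 2-fold threshold, and 1 with every cell weighted equally. The number lower, 0 in the main analysis, was 1 (Socs3) under TMM scaling, median-of-ratios scaling, equal weights, thinning and when cells with Mki67 or Top2a UMIs were left out. The members' median was -0.014 with the same cell mix, which covered 10 of 13 clusters (1380 DMSO and 1915 selinexor cells). TMM moved the median of all genes from 0.13 to 0.003 and median-of-ratios to -0.016, and the share of higher among called genes from 71.8% to 49.3% and 46.2% (55.5% with the same cell mix), so member values are best read against that shift. All 11 alternatives kept the sign of Il6ra, Csf2ra, Csf2rb, Stat3, Stat5a, Stat5b and Socs3 over all cells. Il6st (-0.42 to 0.24), Csf2rb2 (-0.23 to 0.10) and Cish (-0.22 to 0.06) changed sign. In the pathway lists, the 3 negative regulators at least 1.5-fold higher became 0 with the same cell mix, 1 under either other scaling and 5 after thinning. The 2 adaptors and kinases became 0, 1 and 4 in those settings. The 1 higher gene of the beta common list became 0 or 2 in 9 of 15 settings. Within macrophage-like cells Stat5b, 0.59 in the main analysis, was -0.21 at Leiden resolution 1.5, where Il6st, 0.13 in the main analysis, was -1.46 on other cells of that name. The cause was not tested. The 4 other clusterings gave no monocyte-like class with 50 cells in each library, and in 3 of these 4 the cells led by Fn1 and Mrc1 took the macrophage name. Pooled neutrophil-like Socs3 was -0.34, and -1.49 after thinning. Thinning kept 204 of 467 DMSO and 66 of 770 selinexor late neutrophil-like cells. It kept 237 of 238 and 204 of 204 intermediate ones, so the 2 thinned pools differ in make-up. Without the 2 low-UMI clusters pooled Socs3 was 0.96. Those clusters are the whole late neutrophil-like class, so that value covers early and intermediate neutrophil-like cells alone. Depth limits the class values of low transcripts: Stat5a, at 138 and 201 UMIs in all, had an interval including 0 in each class. No paired analysis was possible because each group holds 1 library.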
